A study of Homo sapiens with 12 samples.

Results

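The data described here are the ATAC-seq peaks at ESR1, the gene of estrogen receptor alpha (ER), in MDA-MB-453 cells. A peak was taken when its summit lay in the ESR1 gene span or within 50 kb of either end (hg38, chromosome 6, 151606672 to 152179619), and peaks that overlapped by at least 1 bp, within or between libraries, were joined into 1 site. This gave 139 peak summits in 28 sites, of 1064361 summits in 166523 merged regions in all. In ATAC-seq, a transposase places sequencing adapters where chromatin is accessible. MDA-MB-453 is an established human breast cancer line, and the 3 lines studied were derived from it, with an ectopic ER under doxycycline control in the Y537S, the K303R or the wild-type (WT) form. Cells of each line received doxycycline (Dox, 2 ug/mL), Dox with estradiol (Dox+E2) or 1 nM estradiol alone (E2) for 2 days, or were left untreated. All 12 libraries, 1 for every combination, thus carry an inducible ESR1 sequence, whether or not Dox was given. Without replicates, Dox and E2 were tested over the forms together and a form over the 4 treatments. The labels do not tell whether cultures were independent, so p-values measure no more than the spread among the libraries at hand.

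Lists of peaks held 39522 to 133963 summits on chromosomes 1 to 22 and X, the most in the Y537S libraries (106291 to 133963) and the fewest in K303R untreated. The depth in reads is unknown. The background pileup that could be recovered from the lists ranged from 0.143 to 0.442, and peaks were listed down to a pileup of 3 to 5, depending on the library. The absence of a peak thus means a pileup under that limit, not closed chromatin. Tags in the peak names, read here as runs, set all Y537S libraries apart in 1 run, put K303R with WT E2 and WT untreated in another, and put both WT libraries with Dox in the remaining run. The labels do not say what these tags record, so a run here means no more than a shared tag. Gene ends of luminal epithelial markers were open for 9 to 12 of 12 genes per library, against 0 or 1 of 5 basal, 0 to 2 of 5 fibroblast, 1 to 3 of 6 leukocyte and 0 or 1 of 4 endothelial markers. KRT5, KRT14, TP63 and LUM had no such peak in any library.

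ER is a nuclear receptor that binds estradiol, enters chromatin as a dimer and recruits coactivators at estrogen response elements. Its gene is transcribed from several start sites spread over a long upstream region, and it is expressed in luminal breast cancers that respond to estrogen. Y537S lies in the ligand-binding domain and is known for activity without hormone, whereas K303R lies in the hinge region. MDA-MB-453 is generally classed as lacking ER, with a luminal phenotype marked by the androgen receptor.

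RefSeq (GRCh38.p14) lists 6 ESR1 start sites on the plus strand, and the stretch from 250 bp before to 50 bp after each was set against the peaks. A single one of the 6 stretches carried peaks, that of the fifth start (chr6:151807432-151807731), with a peak over it in 6 libraries. It is shown first, with the stretch of the first start (chr6:151656422-151656721), which had no peak in any library, after it. Capitals mark CG dinucleotides, of which the fifth start has 17 and the first has 4.
ESR1 start 5: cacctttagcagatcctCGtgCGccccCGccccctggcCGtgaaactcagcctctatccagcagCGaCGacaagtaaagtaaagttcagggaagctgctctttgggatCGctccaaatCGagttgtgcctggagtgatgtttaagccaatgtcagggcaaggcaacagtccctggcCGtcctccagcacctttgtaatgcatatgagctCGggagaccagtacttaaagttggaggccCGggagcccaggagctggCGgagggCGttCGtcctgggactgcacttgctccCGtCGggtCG
ESR1 start 1: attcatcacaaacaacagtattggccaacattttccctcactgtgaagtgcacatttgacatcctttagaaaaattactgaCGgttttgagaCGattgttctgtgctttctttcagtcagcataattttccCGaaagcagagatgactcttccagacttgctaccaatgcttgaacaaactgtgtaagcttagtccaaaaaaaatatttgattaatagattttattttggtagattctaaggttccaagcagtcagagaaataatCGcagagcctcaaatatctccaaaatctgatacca
The GC content was 58.3% at the fifth start and 36.3% at the first, against a median of 58.7% over 35116 RefSeq promoters. Searched on both strands, neither stretch held the full estrogen response element (GGTCA, 3 bases of any kind and TGACC), which 0.057% of those promoters hold. Neither held GGTCA alone, the arm of that element (37.4% of promoters), the AP-1 motif TGACTCA (4.95%), the forkhead motif TGTTTAC (3.42%), the AP-2 motif GCCNNNGGC (23.2%) or the GATA motif AGATAA (10.3%). The second start held 1 copy of GGTCA, and the other 3 starts held none of these motifs. A match or its absence in these windows is a description of the letters only.

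The 28 sites were mostly weak, and sparse against genes with at least 10 regions. They came to 4.89 regions per 100 kb, against a median of 12.4 over 12416 protein-coding genes with at least 10 regions in the same kind of window, of which 6.02% had fewer. That limit leaves out short genes with few regions, which raises the median, and the share over all genes was not computed. The summits of 22 sites lay inside ESR1. The other 6 lay in the flanks, 1 of them inside CCDC170 and 3 inside SYNE1, a nuclear envelope gene whose annotated span overlaps the end of ESR1. Of the 28 sites, 1 was open (had a peak) in all 12 libraries, as were 9.99% of all regions, and 11 were open in 1 library only, as were 32% of all regions. The number of open sites was 15 with Dox, 14 with Dox+E2, 9 with E2 and 6 untreated in Y537S. It was 16, 10, 10 and 2 in K303R and 7, 6, 7 and 4 in WT, in the same order of treatments. Counts of 14 or more were thus limited to Y537S with Dox or Dox+E2 and K303R with Dox, which had lists of 97243 to 133963 summits. Other libraries with lists in that range had fewer, namely 9 with E2 and 6 untreated in Y537S and 10 with Dox+E2 in K303R. Peaks in Dox libraries only were found at 15 sites (background 42.4% of all regions), and in libraries without Dox only at 3 sites (background 14%).

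**Figure D1:**
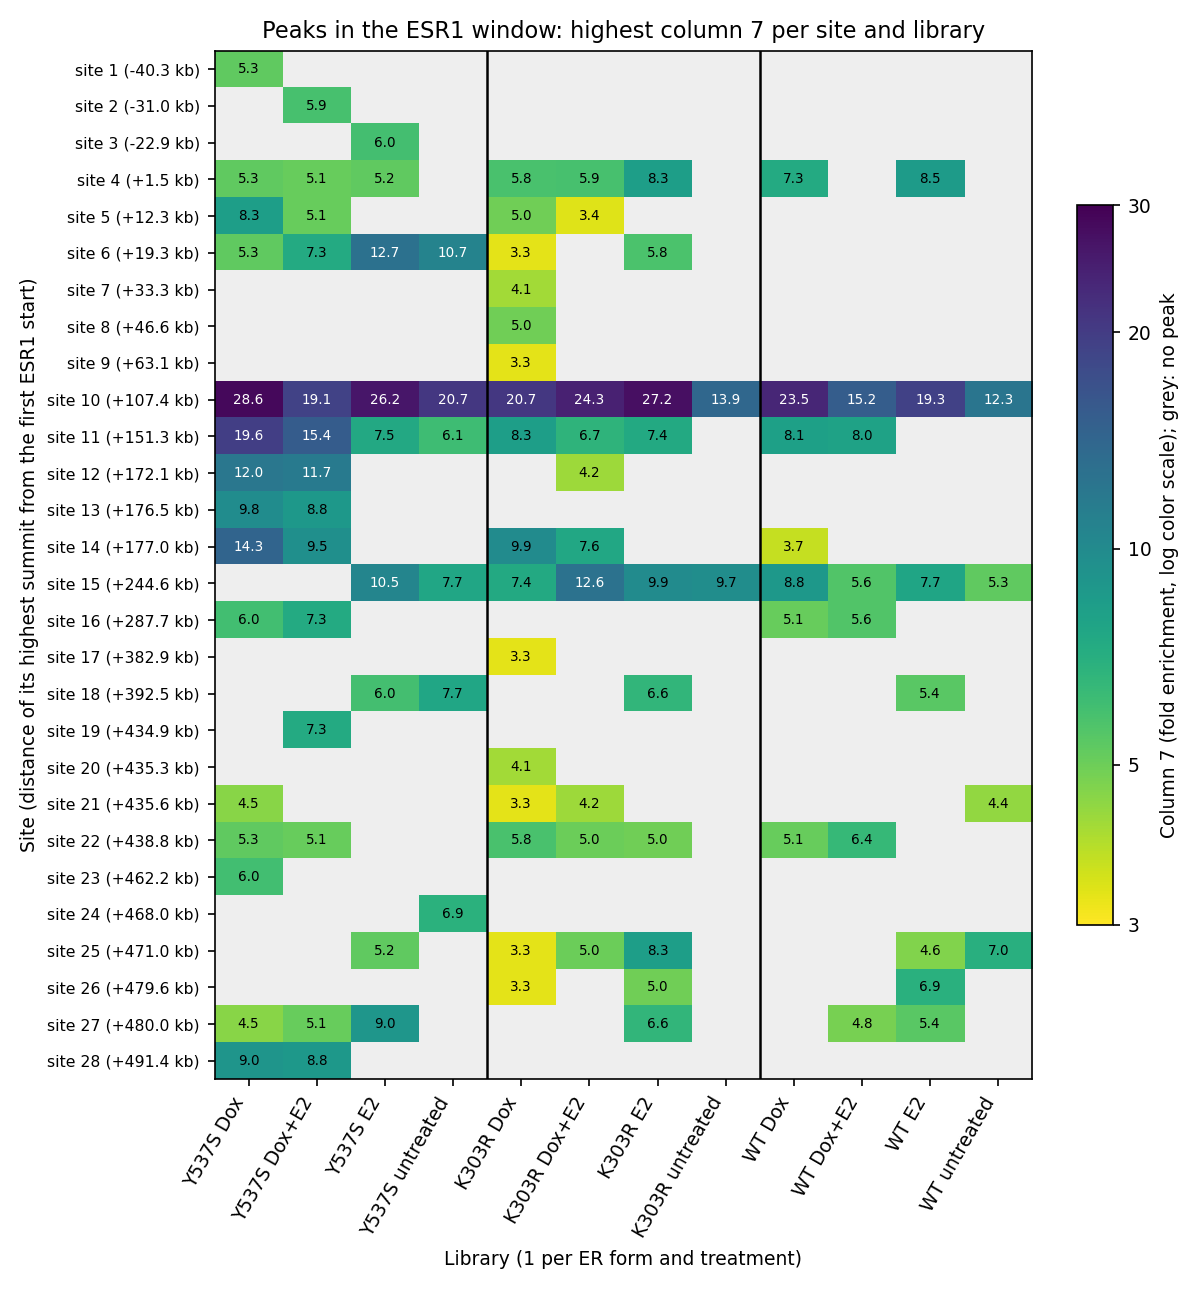
Highest deposited fold enrichment (column 7, log color scale, number in each cell) of the 28 sites, from upstream (top) to downstream (bottom), in the 12 libraries; grey cells had no peak. Site 10 is filled in every column, sites 12, 13 and 28 are highest in the 2 Y537S columns with Dox, and site 15 is missing from those 2 columns.

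Site 10 (chr6:151763167-151764716), inside ESR1 and 43.6 kb upstream of the fifth start, was the strongest site and the one open throughout. Its fold enrichment, the authors' ratio of summit pileup plus 1 to background plus 1, was 28.6 with Dox, 19.1 with Dox+E2, 26.2 with E2 and 20.7 untreated in Y537S. In K303R it was 20.7 with Dox, 24.3 with Dox+E2, 27.2 with E2 and 13.9 untreated. In WT it was 23.5 with Dox, 15.2 with Dox+E2, 19.3 with E2 and 12.3 untreated. The ranges of libraries with and without Dox overlapped in every form. These values scale with a library's signal, so each was also divided by that library's median over regions open in all 12 libraries and not on chromosome 6 (relative fold enrichment). On this scale Y537S had 1.46, 1, 0.972 and 0.844 (Dox, Dox+E2, E2, untreated), K303R 1.47, 1.61, 2.06 and 1.67, and WT 1.78, 1.36, 1.25 and 1.56, so 3 of the 4 Y537S libraries lay below all K303R and WT libraries. The median of chromosome 6 was itself low in Y537S on this scale, at 0.692 to 0.731 against 0.938 to 1 in K303R and WT. The values at site 10 do not take that out.

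A limma fit over the 16630 regions open in all libraries, with ER form, Dox and E2 as terms, put site 10 at a log2 difference of -0.65 ± 0.22 (SE) for Y537S minus K303R and -0.45 ± 0.22 for Y537S minus WT. Neither passed (Benjamini-Hochberg adjusted p = 0.0602 and 0.25), at a background of 7.56% and 3.02% of regions called lower in these contrasts and 2.41% and 1% called higher. The Dox difference was 0.11 ± 0.18 (adjusted p = 0.715), at a background of 5% called higher and 8.83% called lower. K303R minus WT was 0.20 ± 0.22 (adjusted p = 0.783). The adjusted p for Y537S minus K303R was 0.0483 under quantile normalization and 0.0468 without the Y537S Dox library. Treatments stand in for replicates of a form in this fit.

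Site 11 (chr6:151807292-151808423) covers the fifth start. In Y537S it had a fold enrichment of 19.6 with Dox, 15.4 with Dox+E2, 7.49 with E2 and 6.13 untreated. In K303R it had 8.27 with Dox, 6.71 with Dox+E2 and 7.43 with E2, and no peak untreated. In WT it had 8.08 with Dox and 7.98 with Dox+E2, and no peak with E2 or untreated. It was open in all 6 Dox libraries and in 3 of 6 without Dox, and in Y537S both Dox values lay above both others. By presence it counts as Dox-gained (open in both Dox libraries of a form and in neither of the others) in WT alone, where Dox and run cannot be told apart.

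Most summits in site 11 fell into an upstream and a downstream group. With Dox+E2 in K303R a summit lay between these groups, at 117 bp (fold enrichment 5.03). Its peak (151807292 to 151808380) reached into both. In 6 libraries a summit lay before the fifth start, at -141 to -20 bp: with Dox, Dox+E2 and E2 in Y537S and K303R, and in no WT library. In 7 libraries a summit lay at least 200 bp downstream, at 207 to 639 bp: in all 4 of Y537S, in the Dox library of K303R, and in both Dox libraries of WT. The highest of them, at 295 and 287 bp downstream, had fold enrichments of 19.6 (Y537S with Dox) and 15.4 (Y537S with Dox+E2). The WT peaks with Dox (151807916 to 151808423) and with Dox+E2 (151807970 to 151808377) did not reach the fifth start. Exon positions are not in the annotation used here, and reads of an ectopic ESR1 coding sequence and of the endogenous coding exons cannot be told apart in such lists; their part in the peaks at ESR1 was not tested.

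**Figure D2:**
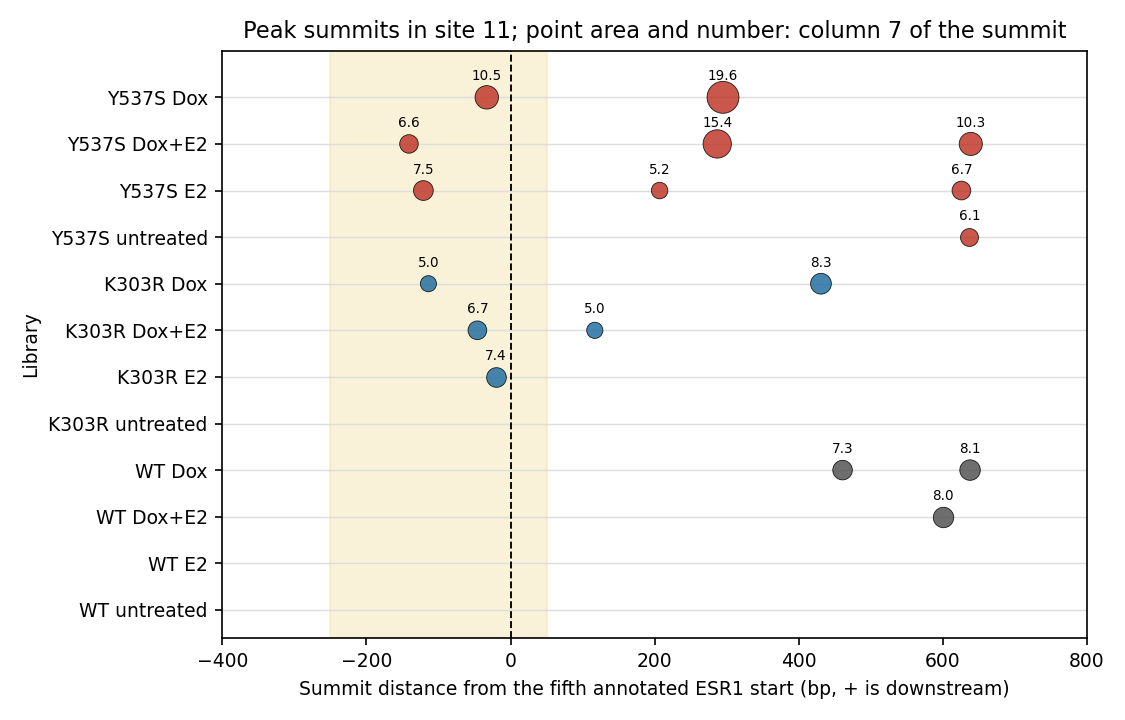
Position of each peak summit in site 11 relative to the fifth annotated ESR1 start (bp), for the 12 libraries; point area and number give the fold enrichment (column 7) and the shaded band is the 300 bp stretch around the start. WT has summits only downstream, from 461 to 638 bp, and the 2 highest points are Y537S with Dox (19.6) and Y537S with Dox+E2 (15.4).

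Dox-gained sites were most numerous in Y537S: 7 of 28, against a background of 18.2% of all regions. K303R had 3 (background 8.54%) and WT 3 (background 4.14%), and none was Dox-gained in all forms (background 1.3%). With libraries limited to the same number of peaks, 1, 0 and 1 sites were gained in Y537S, K303R and WT. In K303R the count was 7 without the E2 library and 8 without the Dox+E2 library. Leaving a library out loosens the rule for every region. No share of all regions was computed for these changed counts, so they are not read as a result about the sites. Sites 12, 13 and 14 lay together 21.1 to 26.0 kb downstream of the fifth start. Site 12 (chr6:151828560-151829142) had a fold enrichment of 12.04 with Dox and 11.7 with Dox+E2 in Y537S. K303R had a peak there with Dox+E2 alone, at 4.19, and WT had none. Site 13 (chr6:151833035-151833328) had 9.78 with Dox and 8.80 with Dox+E2 in Y537S and no peak elsewhere.

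Site 14 (chr6:151833464-151833957) had 14.3 with Dox and 9.53 with Dox+E2 in Y537S. K303R had 9.92 and 7.55 in these treatments and WT had 3.67 with Dox, with no peak in the 6 libraries without Dox. On the relative scale these were 0.731 and 0.50 in Y537S, 0.706 and 0.50 in K303R and 0.278 in WT. Y537S and K303R thus lay close together on this scale, which does not take out the lower chromosome 6 signal of Y537S. Site 14 thus had peaks in 5 of 6 Dox libraries, with WT Dox+E2 the exception, and it lies inside ESR1 with no annotated start within 24 kb. Site 28 (chr6:152147962-152148585), beyond the end of ESR1 and inside SYNE1, had 9.03 with Dox and 8.80 with Dox+E2 in Y537S and no peak elsewhere. Site 5 (chr6:151668842-151669128), 12.3 kb downstream of the first start, had 8.28 with Dox and 5.13 with Dox+E2 in Y537S and 4.96 and 3.36 in K303R, with none in WT or without Dox. The value of 3.36 is a pileup of 3, the lowest listed in that library, whereas the lowest listed pileup was 4 with E2 and 5 untreated in K303R. Site 21 (chr6:152092152-152092487), Dox-gained in K303R alone, was of this kind, at 3.31 (Dox) and 4.19 (Dox+E2) in K303R, 4.51 with Dox in Y537S and 4.38 untreated in WT.

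Sites 16 and 22 were Dox-gained in Y537S and in WT. Site 16 (chr6:151944227-151944575), 137 kb downstream of the fifth start, had 6.02 with Dox and 7.33 with Dox+E2 in Y537S, 5.14 and 5.59 in WT, and no peak in K303R or without Dox. On the relative scale these were 0.308 and 0.385 in Y537S and 0.389 and 0.50 in WT, so WT lay above Y537S on that scale. The scale does not take out the lower chromosome 6 signal of Y537S. The chromosome 6 median on it was 0.692 and 0.731 in these Y537S libraries, against 0.944 and 1 in WT. The order of these forms at site 16 is thus not shown to be particular to the site. In WT the libraries with Dox are also those of 1 run. The 4 peaks of site 16 were 150 to 233 bp wide. Site 22 (chr6:152095198-152095559), 288 kb downstream, had 5.27 with Dox and 5.13 with Dox+E2 in Y537S, 5.79 and 5.03 in K303R, and 5.14 and 6.39 in WT. Without Dox its only peak was that of K303R with E2, at 4.95. On the relative scale site 22 had, with Dox and Dox+E2, 0.269 and 0.269 in Y537S, 0.412 and 0.333 in K303R and 0.389 and 0.571 in WT. It was thus open in every Dox library and in 1 other. Of all regions, 1.56% were open in every Dox library and in at most 1 of the others, which includes the 1.3% gained in all forms. Site 14 was open in 5 Dox libraries and in no other, and no background was computed for that pattern. The 7 peaks of site 22 were 150 to 357 bp wide. The pileups behind sites 16 and 22 were 5 to 9, near the lowest listed, and neither site was left with libraries limited to the same number of peaks. As at the downstream part of site 11, it was not tested whether these peaks lie over ESR1 coding exons, where the ectopic sequence would add reads that cannot be told apart from those of the endogenous gene. Their gain with Dox is therefore not shown to be opening of the endogenous locus.

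Peaks were lost with Dox at 2 sites in Y537S (background 6.71%), at 1 in WT (background 2.08%) and at none in K303R (background 0.0799%). Without the untreated library of a form the counts were 4 in Y537S, 3 in WT and 2 in K303R, and 2 in WT without its E2 library. No share of all regions was computed for these looser rules, so the higher counts are not read as a result about the sites. Site 15 (chr6:151900980-151901481), 93.6 kb downstream of the fifth start, was open in 10 libraries. In Y537S it had 10.5 with E2 and 7.67 untreated and no peak with Dox or Dox+E2. In K303R it had 7.44 with Dox, 12.6 with Dox+E2, 9.91 with E2 and 9.71 untreated. In WT it had 8.82, 5.59, 7.72 and 5.25 in the same order. The peak was thus missing from both Dox libraries of Y537S and present in the other 10. The relative fold enrichment in Y537S, 0.389 with E2 and 0.312 untreated, was below every K303R value (0.529 to 1.17) and WT value (0.50 to 0.667). This scale does not take out the lower chromosome 6 signal of Y537S. The chromosome 6 median on it was 0.722 with E2 and 0.719 untreated in Y537S, against 0.938 to 1 in K303R and WT.

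Site 18 (chr6:152048934-152049254), Dox-lost in Y537S, had 5.99 with E2 and 7.67 untreated in Y537S, 6.60 with E2 in K303R and 5.40 with E2 in WT, and no peak in any Dox library. Site 25 (chr6:152127522-152127797), 1.93 kb before the end of ESR1, was the site Dox-lost in WT. It had 5.24 with E2 in Y537S, 3.31 with Dox, 5.03 with Dox+E2 and 8.25 with E2 in K303R, and 4.63 with E2 and 7 untreated in WT. Site 6 (chr6:151675803-151676110), named after its values were seen, had 5.27 with Dox, 7.33 with Dox+E2, 12.7 with E2 and 10.7 untreated in Y537S, so both Dox values lay below both others. It had 3.31 with Dox and 5.78 with E2 in K303R and no peak in WT. Site 4 (chr6:151658030-151658556), 1.46 kb downstream of the first start, had 5.27 with Dox, 5.13 with Dox+E2 and 5.24 with E2 in Y537S. It had 5.79, 5.87 and 8.25 in the same treatments of K303R, and 7.35 with Dox and 8.49 with E2 in WT, so no untreated library had a peak there.

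Of the 13 remaining sites, 11 were open in 1 library, at a fold enrichment of 3.31 to 7.33, and 5 of these belonged to K303R with Dox. Sites 26 and 27, inside SYNE1, were open in 3 and 6 libraries and reached 6.94 and 8.98. No site was open throughout 1 form and in none of the other 8 libraries, which 0.65% of all regions were for Y537S, 0.003% for K303R and 0% for WT. No site was missing from the 4 libraries of 1 form alone (0.0024%, 0.0042% and 0.0162% of all regions for Y537S, K303R and WT). Sites with peaks in 1 form only numbered 8 for Y537S (32.2% of all regions), 5 for K303R (9.64%) and 0 for WT (5.03%). The 5 of K303R all came from its Dox library, at pileups of 3 to 5, where the lowest listed is 3.

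As a share of each list, the ESR1 window gave no difference between groups that passed a test. It held 1.43 summits per 10000 with Dox, 1.34 with Dox+E2, 1.10 with E2 and 0.847 untreated in Y537S. It held 1.95, 1.27, 1.94 and 0.759 in K303R and 1.10, 1.40, 1.15 and 1.27 in WT in the same order. The means were 1.41 with Dox and 1.18 without (n = 6 libraries each, two-sided exact permutation of Dox labels within forms, p = 0.306, adjusted over 15 tests p = 0.579). The difference of 0.236 turned to -0.0397 and -0.444 at a −log10 q of at least 5 and 10, and to -0.169 at equal list length. E2 (means 1.37 with and 1.23 without) and each form against the others also missed the threshold (exact permutation p = 0.272 to 0.691, adjusted p = 0.579 to 0.864).

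The summed relative fold enrichment of the 28 sites was 7.35 with Dox, 6.38 with Dox+E2, 3.28 with E2 and 2.44 untreated in Y537S. It was 6.82, 5.22, 6.81 and 2.83 in K303R and 4.67, 4.07, 3.75 and 3.67 in WT. In Y537S and in WT both Dox libraries lay above both others, and in K303R the groups overlapped. The WT sums with Dox include sites 11, 16 and 22, which had no WT peak without Dox. They added 0.611, 0.389 and 0.389 with Dox and 0.714, 0.50 and 0.571 with Dox+E2. Whether reads of the ectopic sequence add to these sites was not tested, and no sum or mean without them was computed. In WT, Dox and run cannot be told apart. Over the forms the mean was 5.75 with Dox and 3.80 without, a difference of 1.96 (two-sided exact permutation p = 0.0648, adjusted p = 0.486), which did not pass. With libraries limited to the same number of peaks the difference was -0.00641 (exact permutation p = 0.991, adjusted p = 0.991), with 6 sites left, namely 4, 10, 11, 14, 15 and 25.

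Chromosome 6 as a whole had a lower signal in the Y537S line. Over its 875 regions open in all 12 libraries, the median fold enrichment divided by that of the other chromosomes was 0.692 with Dox, 0.731 with Dox+E2, 0.722 with E2 and 0.719 untreated in Y537S. In K303R it was 0.941, 0.944, 0.938 and 1, and in WT 0.944, 1, 0.95 and 1. The Y537S mean of 0.716 differed by -0.249 from the mean of 0.965 over K303R and WT, and all 4 Y537S libraries lay below all 8 others. Choosing 1 library per treatment as Y537S in every way gave p = 0.0123 (exact permutation, two-sided, 81 arrangements), the smallest this design can give for a form. The adjusted p over the 15 tests was 0.185, which did not pass, and a lone result at this floor could not have passed. The comparison was chosen with the low chromosome 6 signal of Y537S already known, so this p is no independent support for it. Form and run cannot be told apart for Y537S, whereas K303R and WT libraries of 1 run had values of 0.938 to 1 and 0.95 to 1. The value averaged 0.876 with Dox and 0.888 without (exact permutation p = 0.509, adjusted p = 0.72).

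**Figure D3:**
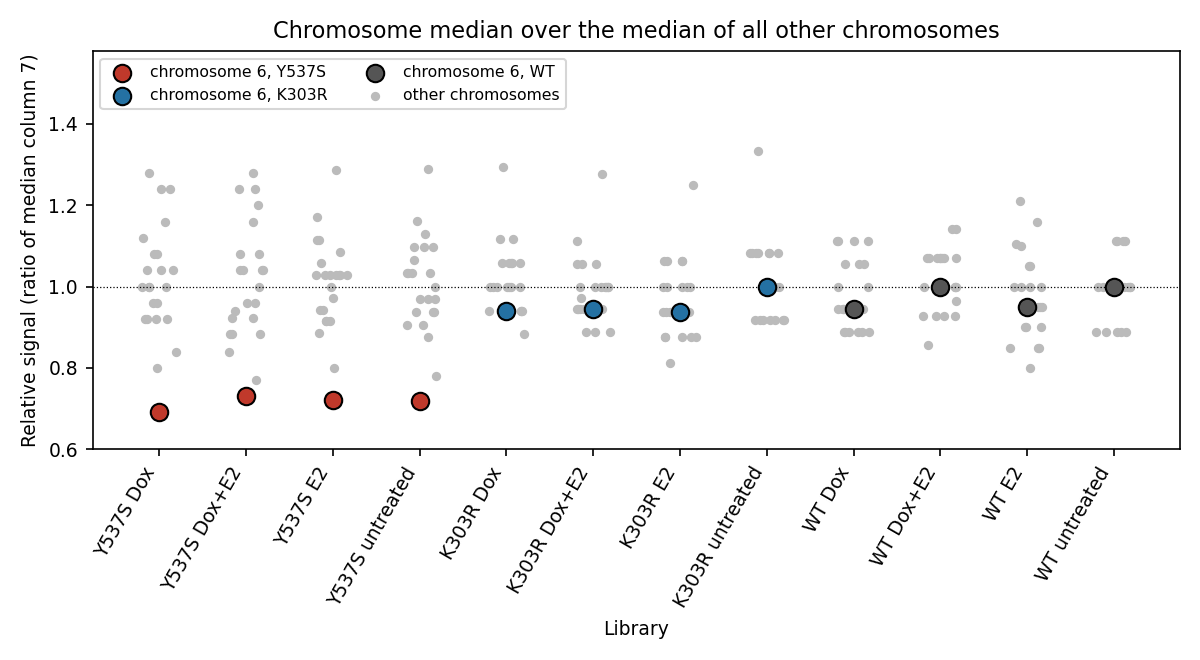
Median fold enrichment of a chromosome's always-open regions over that of all other chromosomes (ratio, y axis) in the 12 libraries; large points are chromosome 6 and grey points the other chromosomes, spread sideways for display. Chromosome 6 lies at 0.692 to 0.731 in Y537S and at 0.938 to 1 in K303R and WT.

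Of the 23 chromosomes, chromosome 6 had the lowest ratio of Y537S to the other lines, 0.742, followed by chromosome 8 with 0.882 and X with 0.898. Separation was not limited to chromosome 6: all 4 Y537S libraries lay above all 8 others on chromosomes 14, 20 and 22. There they had 1.28 to 1.29, 1.03 to 1.04 and 1.16 to 1.24, against 1.06 to 1.16, 0.875 to 1 and 1.06 to 1.14. The highest ratio was 1.21, on chromosome 19, where the ranges overlapped. On chromosome 8 Y537S had 0.941 to 1.03 and WT 0.929 to 1.05, whereas K303R had 1.25 to 1.33. The deficit of Y537S ran along chromosome 6. In each of the 16 bins of 10 Mb with at least 20 always-open regions, all 4 Y537S libraries lay below all 8 others, which held for 5.73% of 227 such bins on the other chromosomes. The ratio ranged from 0.68 to 0.784 over these bins, and it was 0.68 in the bin that holds ESR1 (54 regions). In the fit over always-open regions, the median log2 difference of Y537S minus WT was -0.40 over chromosome 6 and 0.03 over the other chromosomes. It was below 0 at 91.8% of chromosome 6 regions and 46.8% of the others. The values at site 10 were -0.45 for Y537S minus WT, and -0.65 for Y537S minus K303R, where the median over chromosome 6 was -0.35. Peaks on chromosome 6 made up 4.10 to 4.59% of the Y537S lists, against 4.59 to 5.40% of the K303R and WT lists.

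**Figure D4:**
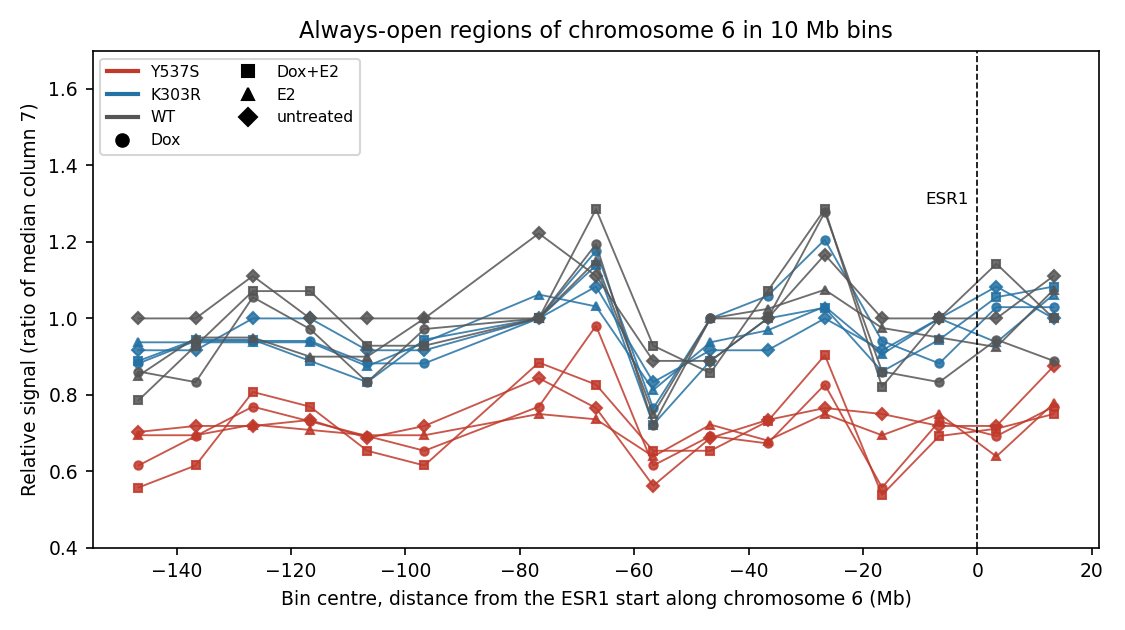
Median relative fold enrichment of always-open regions in 10 Mb bins of chromosome 6 with at least 20 such regions (y axis, ratio), against distance of the bin centre from the ESR1 start (x axis, Mb), 1 line per library. The 4 Y537S lines lie below the 8 others in all 16 bins drawn.

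Of 10 neighbours on chromosome 6 (CCDC170, SYNE1, RMND1, ARMT1, ZBTB2, AKAP12, MTHFD1L, MYCT1, VIP and FBXO5), 0 had a region gained with Dox in all forms, at a background of 19.9% of 12416 gene windows. A Dox-gained region was found for 4 of the 10 in Y537S (background 85.6%), 6 in K303R (74.6%) and 1 in WT (48%), and windows of neighbours overlap. SYNE1 had 24 regions, 10 of them shared with the ESR1 window, and CCDC170 had 10, of which 5 were shared. The median neighbour had 9 regions and MYCT1 and VIP had 1 each, whereas every window behind the background held at least 10.

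Of 26 genes of nuclear receptors, pioneer factors and coregulators, 4 had a region gained with Dox in all forms, at a background of 19.9% of gene windows: PGR, the progesterone receptor gene, with 2, and ESR2, which encodes ER beta, ESRRA, an estrogen-related receptor gene, and PPARGC1B, a coactivator gene, with 1 each. Gains were found for 25 of the 26 in Y537S, 24 in K303R and 11 in WT, at the same backgrounds of 85.6%, 74.6% and 48%. Losses were found for 18 in Y537S (background 59.6%), 0 in K303R (2.31%) and 11 in WT (28.8%). FOXA1 and GATA3, pioneer factor genes known to act with ER, had 19 and 23 regions and none gained in all forms. The summed relative fold enrichment of ESR2 was 10.5 with Dox and 6.48 without (means of 6 libraries each).

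The 5 genes off chromosome 6 whose summed relative fold enrichment (log2) followed that of ESR1 most closely over the 12 libraries were NUDCD1 (Pearson r = 0.871), IL1RL2, an interleukin receptor gene (0.865), KCNK1, a potassium channel gene (0.862), PIK3CB, which encodes a catalytic subunit of a lipid kinase (0.86), and SPIDR (0.853). They were the highest of 11807 genes with a median r of 0.396, and all points share the depth of their library, so this is a description of these libraries only.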

How the data were processed

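ATAC-seq peak lists of 12 libraries were used, 1 per ER form and treatment. The submitters' processing notes name Bowtie2, SAMtools, Picard, FastQC, MACS2 and hg38. Tool versions, settings and whether reads were shifted to the cut site: not given in the sources used here. Libraries were sequenced as 75 bp paired ends, per the labels. Peaks were deposited per library, without a pooled list. The deposited score follows the −log10 q (10 times it, cut to whole numbers), the deposited −log10 p and −log10 q are those of the summit, and the deposited ratio (fold enrichment) is summit pileup plus 1 over background plus 1. The deposited summit offset, another column, gave the summit position. Fold enrichments were whole multiples of 1 step per library, so pileups were recovered to within 0.000709 of a whole number.

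Peaks on chromosomes 1 to 22 and X were merged genome-wide where they overlapped by 1 bp or more, and a site's value is the highest fold enrichment of its peaks. Library values were compared by two-sided exact permutation, Dox or E2 within ER forms (216 arrangements) and forms within treatments (81 arrangements), with Benjamini-Hochberg adjustment over 15 tests and a threshold of 0.05. Log2 fold enrichments, less the library median, were fitted with limma 3.58.1 (R 4.3.3) over all regions together, with no pseudocount. Other steps used Python 3.11.15, and the tests were checked on simulated data. Gene spans and promoters came from RefSeq tables (GRCh38.p14, which shares hg38 coordinates), without exons; no genome sequence was used here. All listed genes were matched.

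The window, gene lists and tests were chosen with earlier results of these data known. Sites named are those open in all libraries, those that meet a rule over forms, up to 3 Dox-gained and 3 Dox-lost sites per form with the largest smaller fold enrichment (4 where tied), those at an annotated start and the 3 highest per form. Alternatives were −log10 q thresholds of 5 and 10, lists of 39522 peaks each, windows of 20 and 100 kb or the span alone, peaks covering 50% of a region, other scales, and each form or library left out; for sites 11 and 15 in a fit with missing peaks filled in, these were added after seeing the data, and no call is drawn from them.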

Additional observations from a re-analysis of the deposited data

How the results depend on the processing

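The peak lists have 1 library per ER form and treatment, and sites with pileups near the lowest listed (3 to 5) appear or vanish with list length. No paired analysis was possible because the labels carry no replicate numbers that groups share; libraries were matched by ER form and treatment instead. Permutation tests and limma contrasts between forms were not run with a form left out. A limma fit with missing peaks set to the lowest listed value was also run over regions open in at least 6 libraries. Which libraries have peaks decides both the entry of a site with missing peaks and its values, so no call on such sites is drawn from it. The lower chromosome 6 signal of Y537S kept its direction under every alternative run, with a difference of -0.270 to -0.238 when single libraries were left out.

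Summits per 10000 with Dox minus without Dox, 0.236 in the report, were -0.0397 at a −log10 q of at least 5, -0.444 at 10 and -0.169 at equal list length, and 0.129 to 0.390 without single libraries. With E2 minus without E2 they were -0.230 at a −log10 q of 10 and 0.0240 to 0.285 without single libraries. For WT minus the other forms they were 0.0198 at a −log10 q of 5 and 0.0633 at equal list length, and -0.291 to 0.0644 without single libraries.

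The summed relative fold enrichment with Dox minus without Dox was -0.00641 at equal list length. With E2 minus without E2 it was -0.0237 at a −log10 q of 10, -0.283 at equal list length, -0.126 over the gene span alone and -0.167 without the K303R form, and -0.148 to 0.834 without single libraries. For Y537S minus the other forms it was -1.01 at equal list length, -0.0691 and -0.285 with 20 and 100 kb windows and -0.216 over the gene span alone, and -0.405 to 0.842 without single libraries. For WT minus the other forms it was 0.0356 at equal list length.

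The relative chromosome 6 signal with Dox minus without Dox was 0.0118 at equal list length, 0.00232 from means of log2 values, 0.00132 away from gene ends and 0.000224 without the K303R form, and -0.0464 to 0.0236 without single libraries. With E2 minus without E2 it was 0.0199 without the Y537S form and 0.0135 without the WT form, and -0.0511 to 0.0298 without single libraries.

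At site 10 the log2 difference with Dox minus without Dox was -0.0564 without the Y537S form. With E2 minus without E2 it was 0.0342 without the WT form and -0.207 to 0.0185 without single libraries. For Y537S minus K303R it was -0.73 under quantile normalization, past the threshold, and -0.82 to -0.48 without single libraries.

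By presence, a −log10 q of at least 5 left 1 site Dox-gained in K303R, 1 in WT and 0 Dox-lost in WT. At 10, 1 site was Dox-lost in Y537S and 0 in WT, and 0 were gained in K303R or WT. At equal list length 1 was gained in Y537S, 0 in K303R and 1 in WT, and 0 were lost in Y537S or WT. With peaks covering at least 50% of a region, 1 site was gained in all forms and 5 in K303R. Without the K303R form, 2 were gained in the remaining forms, 1 was open only in Y537S and 1 was missing only in WT, and without the WT form 2 were gained in the others. Without single libraries, sites gained in all forms numbered 0 to 1 (1 without K303R E2 and 1 without WT Dox+E2), gained in K303R 3 to 8, and gained in Y537S 7 to 10. Sites lost numbered 2 to 4 in Y537S, 0 to 2 in K303R and 1 to 3 in WT. In all these cases the cause was not tested, beyond the fewer peaks or libraries that an alternative leaves. The share of all regions that meets each rule under these alternatives was not computed.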
